A study of Mus musculus with 8 samples.

Results

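The genes described here make and recycle tetrahydrobiopterin, the cofactor of tyrosine and tryptophan hydroxylase, and were followed in ribosome-associated RNA from the mouse ventral tegmental area (VTA), a part of the midbrain rich in dopamine neurons. The 7 members were chosen by their place in the pathway, with results of the genotype contrast already known: Gch1, Gchfr, Pts, Spr, Pcbd1, Pcbd2 and Qdpr. They are 7 of the 56691 gene IDs in the deposited count table, and all 7 were among the 19912 genes that passed the filter on low counts. Because the contrast was known when they were chosen, their fold changes and calls are given as a description, without p-values.

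The study compared male mice with an Ogt flox+/Y genotype, the Ogt knockdown group, with Ogt flox-/Y mice, the control group. The product of Ogt, O-GlcNAc transferase, adds single N-acetylglucosamine sugars to serines and threonines of proteins in the nucleus and cytoplasm. Both groups received the same 2 viruses in the VTA: AAV-TH-Cre, which expresses Cre recombinase from a tyrosine hydroxylase promoter, and AAV-Flex-NBL10, which after recombination expresses an HA-tagged protein, NBL10, used to pull down ribosomes. The controls therefore carried the same viruses, Cre and tagged ribosomes, and differed by the flox allele. There were 4 libraries per group, flox+/Y replicates 2, 3, 4 and 5 and flox-/Y replicates 3, 4, 5 and 6. The ages of the mice, and whether each library came from a separate animal, are not given in the sources used here, so the p-values reflect the spread among these libraries only, and that spread may be technical. Recombination depended on the tyrosine hydroxylase promoter of an injected virus, and the RNA came from ribosomes pulled down from tissue, not from sorted cells. Fewer cells of a type and less RNA per cell cannot be told apart in such samples.

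Tetrahydrobiopterin is made from GTP in 3 enzymatic steps. GTP cyclohydrolase (Gch1) opens the route and is its rate-limiting enzyme, and the regulatory protein encoded by Gchfr binds it and conveys feedback inhibition by the cofactor. Pyruvoyl-tetrahydropterin synthase (Pts) and sepiapterin reductase (Spr) complete the synthesis. Each round of tyrosine or tryptophan hydroxylation leaves the cofactor as a carbinolamine, which the dehydratases Pcbd1 and Pcbd2 convert to a quinonoid dihydropterin, and dihydropteridine reductase (Qdpr) reduces that product back to tetrahydrobiopterin. Dopamine and serotonin neurons depend on this supply for transmitter synthesis. Inherited loss of Gch1, Pts, Spr or Qdpr can cause shortage of both transmitters.

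The libraries held between 49802305 and 147747191 counted reads, and a count of 3 reads, the floor of detection used here, corresponded to 0.0203 to 0.0602 CPM, the read count scaled to library size. Members were far above it, with 483 to 17711 reads per gene and library. Ogt itself stood at 108.3 to 159.4 CPM in the controls and at 35.99 to 74.43 CPM in the flox+/Y libraries, without overlap (log2 fold change -1.34 ± 0.23 SE, adjusted p = 0.00243 by edgeR's quasi-likelihood test). Libraries numbered 3 stood apart in both groups. In flox-/Y replicate 3 the summed level of 10 endothelial markers was 1081 CPM against 15.95 to 23.66 CPM in the other controls, and that of 9 pericyte and smooth muscle markers was 627.6 CPM against 20.86 to 27.79 CPM. Flox+/Y replicate 3 was the highest of its group for 5 of the 7 members, and flox-/Y replicate 3 the lowest of its group for 5 of the 7. For the members, results that rest on these libraries are given with and without them, and for related genes where stated.

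The 7 genes did not share one direction. Gch1, at the entry of synthesis, and Pcbd1, the dehydratase of recycling, were lower in the flox+/Y libraries by 2.97-fold and 4.84-fold. Pts and Pcbd2 were higher by 1.45-fold and 1.6-fold. Gchfr, Spr and Qdpr were not called. A gene counts as called when its Benjamini-Hochberg adjusted p, from edgeR's quasi-likelihood test over all 19912 genes, was under 0.05. Of the 7 members, 4 were called, against 28.5% of all genes tested. By direction, 2 of 7 were called lower, where 15.1% of all genes were, and 2 of 7 higher, where 13.4% were. The groups did not overlap for the same 4 members, and for 35.1% of all genes. These shares are printed as background only, since the contrast itself was known when the members were chosen. The median log2 fold change of the 7 members was -0.43, and that of all genes tested 0.002.

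**Figure D1:**
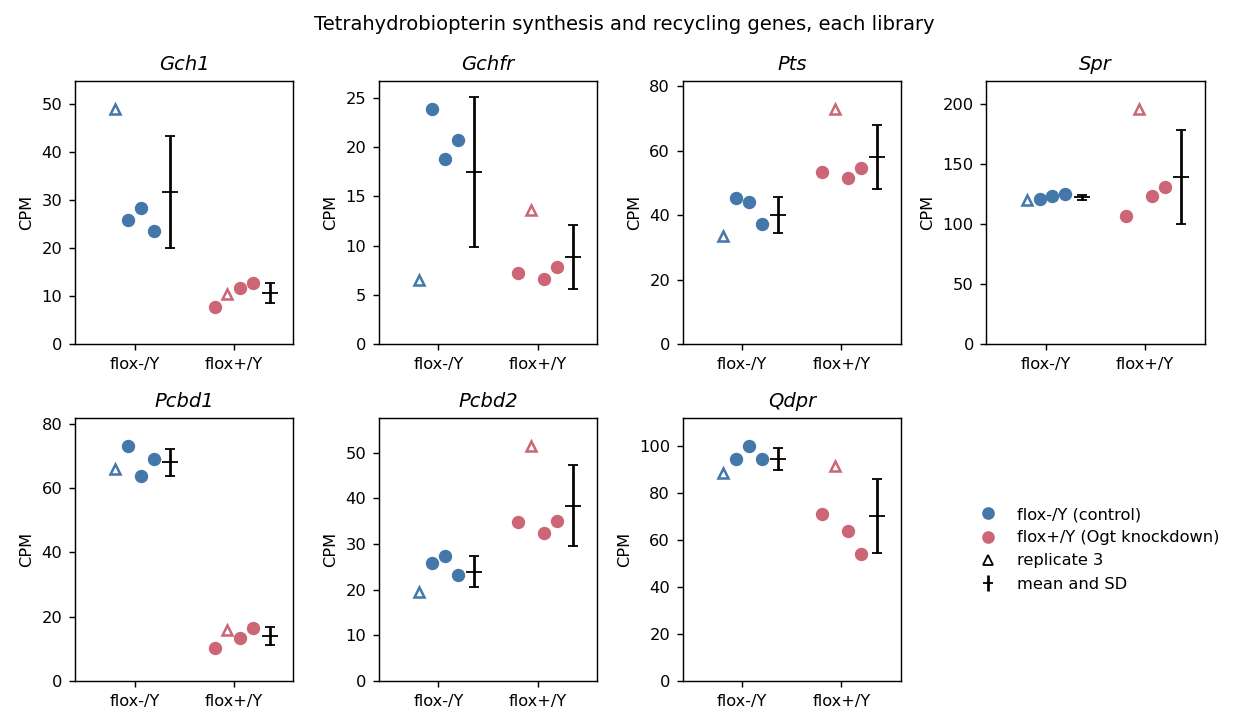
Level of each member in each library in CPM (linear axes from 0), by genotype, with the mean and SD of the 4 libraries of each group beside the points and replicate 3 of each group drawn as an open triangle. Gch1 and Pcbd1 sit lower in every flox+/Y library than in any control, Pts and Pcbd2 sit higher, and the groups overlap for Gchfr, Spr and Qdpr.

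The promoters of the 4 members whose groups did not overlap are shown here because the members fall into opposite directions although they serve one pathway. Each is the RefSeq window of 250 bases before to 50 after the gene's start on GRCm38.p6, a different build from that of the count table, written 5′ to 3′ on the gene's strand. The 7 members all had such a window in RefSeq. Capitals mark matches, on either strand, to the cAMP response element TGACGTCA or its first letters TGACG, the CCAAT box, the GC box GGGCGG or the TATA box TATAAA. A TGACGTCA match always contains TGACG, so these 2 motifs overlap.
Gch1 (lower), chr14:47189364-47189663, minus strand: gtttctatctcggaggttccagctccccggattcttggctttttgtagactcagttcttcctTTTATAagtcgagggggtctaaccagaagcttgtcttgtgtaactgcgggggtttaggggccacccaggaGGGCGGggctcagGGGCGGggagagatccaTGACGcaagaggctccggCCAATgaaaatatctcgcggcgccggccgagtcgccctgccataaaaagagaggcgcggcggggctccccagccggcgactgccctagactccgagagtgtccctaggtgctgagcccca
Pcbd1 (lower), chr10:61089081-61089380, plus strand: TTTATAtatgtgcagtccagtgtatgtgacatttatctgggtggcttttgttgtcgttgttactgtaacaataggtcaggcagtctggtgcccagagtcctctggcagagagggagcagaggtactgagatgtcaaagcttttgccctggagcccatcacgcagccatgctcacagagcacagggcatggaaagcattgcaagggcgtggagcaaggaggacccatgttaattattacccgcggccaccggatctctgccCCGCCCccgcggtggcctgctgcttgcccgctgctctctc
Pts (higher), chr9:50528607-50528906, minus strand: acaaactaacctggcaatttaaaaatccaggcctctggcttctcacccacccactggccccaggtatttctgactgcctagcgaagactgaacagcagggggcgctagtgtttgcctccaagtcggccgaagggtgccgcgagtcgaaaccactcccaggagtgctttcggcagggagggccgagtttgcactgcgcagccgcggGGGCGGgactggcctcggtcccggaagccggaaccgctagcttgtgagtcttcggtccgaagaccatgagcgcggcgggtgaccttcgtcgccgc
Pcbd2 (higher), chr13:55727118-55727417, plus strand: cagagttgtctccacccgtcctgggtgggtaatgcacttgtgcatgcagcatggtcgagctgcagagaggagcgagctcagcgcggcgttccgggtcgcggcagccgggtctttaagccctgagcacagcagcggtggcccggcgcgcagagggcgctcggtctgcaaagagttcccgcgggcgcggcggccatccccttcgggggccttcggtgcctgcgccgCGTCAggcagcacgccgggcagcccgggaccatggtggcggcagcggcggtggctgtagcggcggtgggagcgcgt

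The Gch1 window holds the most matches of these 4. It has TGACG at position -88 and CCAAT at -70, with GC boxes at -118 and -105 and a TATAAA on the other strand at -188, counted from the gene's start. Th, the hydroxylase that uses the cofactor in dopamine neurons, holds a full TGACGTCA at -45, a motif found in 1.79% of the 32851 promoters of this table. The shorter TGACG occurs in 20.8% of them, CCAAT in 37.4%, GGGCGG in 35.7% and TATAAA in 13.6%. The Pcbd1 window has a GC box at 11 and a TATAAA at -250, both on the other strand. Pts has 1 GC box at -45, and Pcbd2 has TGACG on the other strand at -26. GC content was 60.3% for Gch1, 55.3% for Pcbd1, 62.7% for Pts and 71.7% for Pcbd2, each above the 52.7% of the median promoter. A match describes the letters of a window and nothing more.

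Gch1 (ENSMUSG00000037580.11, chromosome 14, 47391352 to 47426870, minus strand, GRCm39, 6251 exonic bases) opens synthesis from GTP. In flox-/Y replicates 3, 4, 5 and 6 it was measured at 48.89, 25.81, 28.32 and 23.55 CPM. In flox+/Y replicates 2, 3, 4 and 5 it was measured at 7.724, 10.53, 11.70 and 12.66 CPM. Every knockdown library lay below every control, and flox-/Y replicate 3 lay far above the other controls. The group means were 31.6 ± 11.7 CPM (SD, n = 4) in controls and 10.7 ± 2.14 CPM (SD, n = 4) in flox+/Y, a log2 fold change of -1.57 ± 0.25 SE. Only 3.10% of all genes tested fell by more. With flox-/Y replicate 3 left out, the control mean was 25.9 ± 2.39 CPM (SD, n = 3) and the log2 fold change -1.28, and Gch1 was still called lower. It was called lower in each of the 16 alternative analyses, with log2 fold changes from -1.69 to -1.23.

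Gchfr (ENSMUSG00000046814.4, chromosome 2, 118998254 to 119002871, plus strand, GRCm39, 645 exonic bases) encodes the protein that regulates GTP cyclohydrolase. The control libraries gave 6.537, 23.82, 18.76 and 20.66 CPM for replicates 3 to 6, and the flox+/Y libraries 7.194, 13.61, 6.583 and 7.802 CPM for replicates 2 to 5. The groups overlapped through a single control, replicate 3, which was the lowest of all 8 libraries, while flox+/Y replicate 3 was the highest of its group. The log2 fold change was -0.99 ± 0.38 SE with all 8 libraries and Gchfr was not called. Without flox-/Y replicate 3 it was -1.27, and without both libraries numbered 3 it was -1.55, and it was called lower in both cases. The means of the 3 remaining libraries per group were then 21.1 ± 2.56 CPM (SD, n = 3) in controls and 7.19 ± 0.610 CPM (SD, n = 3) in flox+/Y. It was also called lower with DESeq2, with limma-voom and without flox+/Y replicate 3. The order of the controls for this regulator was opposite to that for its enzyme, since replicate 3 was the highest control for Gch1 and the lowest for Gchfr.

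Pts (ENSMUSG00000032067.7, chromosome 9, 50432917 to 50440024, minus strand, GRCm39, 6101 exonic bases) catalyses the step after Gch1. It stood at 33.56, 45.31, 44.24 and 37.22 CPM in control replicates 3 to 6 and at 53.39, 72.93, 51.52 and 54.81 CPM in flox+/Y replicates 2 to 5. All flox+/Y libraries were above all controls, and flox+/Y replicate 3 was well above the rest of its group. Means were 40.1 ± 5.64 CPM (SD, n = 4) in controls and 58.2 ± 9.94 CPM (SD, n = 4) in flox+/Y, a log2 fold change of 0.54 ± 0.16 SE. Without flox+/Y replicate 3 the flox+/Y mean was 53.2 ± 1.65 CPM (SD, n = 3), still above every control. The call as higher was lost without the filter on low counts and in a fit with the replicate number as a block. It was also lost on leaving out flox+/Y replicate 2, flox+/Y replicate 5 or flox-/Y replicate 6. The direction was the same in all 16 alternatives, with log2 fold changes from 0.34 to 0.63.

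Spr (ENSMUSG00000033735.10, chromosome 6, 85107158 to 85114748, minus strand, GRCm39, 3545 exonic bases) completes the cofactor. Its control libraries were the tightest of any member, at 120.5, 121.1, 123.6 and 125.3 CPM for replicates 3 to 6, a coefficient of variation of 1.79%. The flox+/Y libraries gave 107.1, 196.0, 123.5 and 130.9 CPM for replicates 2 to 5 and overlapped the controls on both sides. The log2 fold change was 0.18 ± 0.18 SE (approximate 95% interval, by the normal distribution, -0.16 to 0.53), and Spr was not called. Its sign rested on flox+/Y replicate 3: without that library the log2 fold change was -0.02, and the flox+/Y mean was 121 ± 12.2 CPM (SD, n = 3) beside 123 ± 2.20 CPM (SD, n = 4) in controls.

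Pcbd1 (ENSMUSG00000020098.8, chromosome 10, 60925110 to 60930103, plus strand, GRCm39, 817 exonic bases) showed the largest difference of the 7 members. Its product dehydrates the carbinolamine left by the hydroxylases. The control libraries gave 65.97, 73.18, 63.82 and 69.22 CPM for replicates 3 to 6, and the flox+/Y libraries 10.35, 15.96, 13.42 and 16.52 CPM for replicates 2 to 5. The groups were far apart and neither library numbered 3 stood out. Means were 68.1 ± 4.08 CPM (SD, n = 4) in controls and 14.1 ± 2.82 CPM (SD, n = 4) in flox+/Y, a log2 fold change of -2.27 ± 0.17 SE. Of the 19912 genes tested, 170, or 0.854%, fell by more. Pcbd1 was called lower in all 16 alternatives, with log2 fold changes from -2.39 to -2.15.

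Pcbd2 (ENSMUSG00000021496.13, chromosome 13, 55875181 to 55924643, plus strand, GRCm39, 546 exonic bases) is the paralogue of Pcbd1 with the same enzymatic activity. It went the other way, from 19.53, 25.81, 27.32 and 23.23 CPM in control replicates 3 to 6 to 34.76, 51.50, 32.40 and 35.02 CPM in flox+/Y replicates 2 to 5. The groups did not overlap, and flox+/Y replicate 3 was again well above the rest of its group. Means were 24.0 ± 3.41 CPM (SD, n = 4) and 38.4 ± 8.80 CPM (SD, n = 4), a log2 fold change of 0.68 ± 0.18 SE. Without flox+/Y replicate 3 the flox+/Y mean was 34.1 ± 1.45 CPM (SD, n = 3). The call as higher was lost without flox-/Y replicate 6 and in a fit with the replicate number as a block. Log2 fold changes ran from 0.42 to 0.78 over the 16 alternatives. Counting took no account of strand, and 27 of the 546 exonic bases (4.95%) are shared with the gene 4930451E10Rik.

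Qdpr (ENSMUSG00000015806.13, chromosome 5, 45591363 to 45607578, minus strand, GRCm39, 1788 exonic bases) encodes the reductase that closes the cycle. Control replicates 3 to 6 gave 88.23, 94.50, 99.89 and 94.29 CPM. Flox+/Y replicates 2 to 5 gave 70.84, 91.37, 63.63 and 54.15 CPM. Only flox+/Y replicate 3 reached the controls, and the other 3 knockdown libraries were below all of them. The log2 fold change was -0.43 ± 0.16 SE (approximate 95% interval, by the normal distribution, -0.74 to -0.12) and Qdpr was not called. Without flox+/Y replicate 3 it was -0.58, without flox-/Y replicate 3 it was -0.46 and without both it was -0.61, and each time Qdpr was called lower, as it was with limma-voom. The SD of the flox+/Y libraries was 15.8 CPM with all 4, and without replicate 3 their mean was 62.9 ± 8.38 CPM (SD, n = 3), beside 94.2 ± 4.76 CPM (SD, n = 4) in controls. Of its 1788 exonic bases, 332 (18.6%) overlap Gm42413 on the opposite strand, and reads from that stretch cannot be assigned to either gene.

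**Figure D2:**
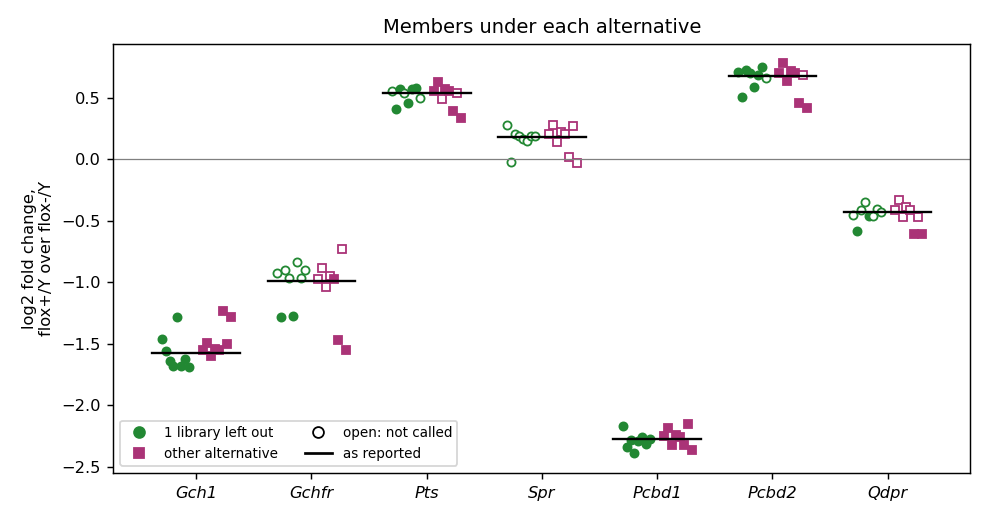
Log2 fold change (flox+/Y over flox-/Y, vertical axis) of each member as reported (black line) and under each alternative: circles leave out 1 library, squares change the scaling, filter, test, replicate term or both libraries numbered 3, and open symbols mark alternatives in which the member was not called. Gch1 and Pcbd1 stay below zero and called throughout, Pts and Pcbd2 stay above zero with some calls lost, and Spr lies on both sides of zero.

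Per kilobase of exon, the order of the members differed between the groups. The length used covers all annotated exons of a gene and can exceed that of the transcripts present. Pts, for example, has 6101 exonic bases between positions 50432917 and 50440024. The order therefore depends on the annotation, and levels can be compared between genes only roughly. In controls Pcbd1 led at 83.3 ± 4.99 CPM per kilobase (SD, n = 4). Qdpr at 52.7 ± 2.66 and Pcbd2 at 43.9 ± 6.24 CPM per kilobase followed, with ranges that touched. Spr at 34.6 ± 0.620 and Gchfr at 27.1 ± 11.7 CPM per kilobase did not differ beyond their spread, and Pts at 6.57 ± 0.924 and Gch1 at 5.06 ± 1.87 CPM per kilobase were lowest and overlapped. In flox+/Y libraries Pcbd2 led at 70.4 ± 16.1 CPM per kilobase, above all libraries of the next. Spr, between 30.2 and 55.3, and Qdpr, between 30.3 and 51.1 CPM per kilobase, could not be separated. Pcbd1 stood below all libraries of both, at 17.2 ± 3.45 CPM per kilobase, overlapping Gchfr at 13.6 ± 5.04, which overlapped Pts at 9.53 ± 1.63. Gch1 was last at 1.70 ± 0.342 CPM per kilobase, with every library under every library of Pts. The entry enzyme had the lowest mean level per annotated exonic length in both groups.

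Ratios of reads within a library do not depend on its scaling. The 2 dehydratases changed places: reads per kilobase of Pcbd1 over those of Pcbd2 were 2.26, 1.90, 1.56 and 1.99 in control replicates 3 to 6 and 0.199, 0.207, 0.277 and 0.315 in flox+/Y replicates 2 to 5. Pcbd1 exceeded Pcbd2 in every control and was below it in every knockdown library. The mean ratio was 1.93 ± 0.288 (SD, n = 4) in controls and 0.25 ± 0.0561 (SD, n = 4) in flox+/Y, a 7.72-fold difference. Gchfr over Gch1, the regulator over its enzyme, did not separate the groups, at 1.3 to 8.95 in controls and 5.45 to 12.5 in flox+/Y per kilobase.

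Against tyrosine hydroxylase the entry enzyme kept a narrow range. Gch1 reads per 1000 Th reads were 39.4, 59.3, 45.7 and 44.3 in control replicates 3 to 6 and 42.9, 57.1, 55.5 and 44.8 in flox+/Y replicates 2 to 5, so the groups overlapped and the highest of the 8 was 1.51 times the lowest. Means were 47.2 ± 8.53 (SD, n = 4) in controls and 50.1 ± 7.26 (SD, n = 4) in flox+/Y. Flox-/Y replicate 3, whose Gch1 was so far above the other controls in CPM, was the lowest of all 8 on this ratio, and its Th was also the highest. Against Ddc, the next enzyme of dopamine synthesis, the ratio did separate the groups: Gch1 reads per 1000 Ddc reads were 105 to 113 in controls and 169 to 199 in flox+/Y. Pcbd1 per 1000 Th reads was 53.2, 168, 103 and 130 in controls and 57.5, 86.5, 63.7 and 58.5 in flox+/Y. These overlapped only through control replicate 3. Against Ddc the groups overlapped, with Pcbd1 reads per 1000 Ddc reads at 147 to 316 in controls and 205 to 267 in flox+/Y. Pts, Spr and Pcbd2 per 1000 Th reads were higher in every flox+/Y library than in any control, at 194 to 395 against 27.1 to 104 for Pts.

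**Figure D3:**
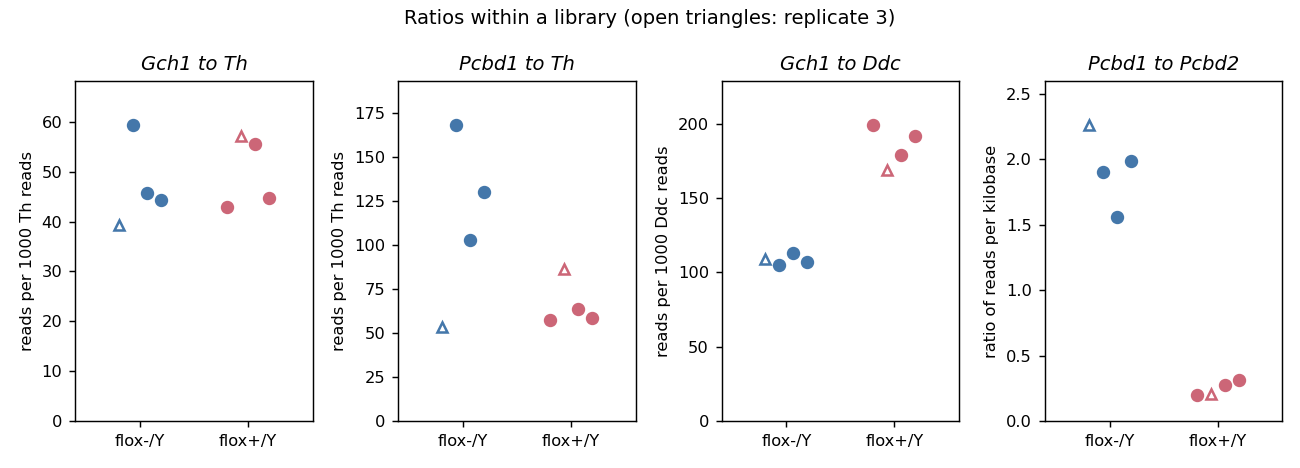
Ratios of reads within each library by genotype, on linear axes from 0, with replicate 3 of each group as an open triangle: Gch1 and Pcbd1 per 1000 Th reads, Gch1 per 1000 Ddc reads, and Pcbd1 over Pcbd2 in reads per kilobase. Gch1 to Th overlaps between the groups (39.4 to 59.3 and 42.9 to 57.1), while Pcbd1 to Pcbd2 lies between 1.56 and 2.26 in controls and between 0.199 and 0.315 in flox+/Y.

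For the 4 called members, the genes with the most similar profiles were named by the root mean square difference of centred log2 CPM over the 8 libraries, among 11387 genes with a mean of at least 5 CPM. These libraries share the genotype contrast, so likeness includes it, and it says nothing of function. Nearest to Gch1 were Slc27a2 (0.112), Ptprn (0.135) and Acot7 (0.150), and Th lay at 0.205 with 19 genes nearer. Nearest to Pcbd1 were Tubb3 (0.182), a neuronal tubulin, Aldh1b1 (0.201) and Tmem91 (0.213). Pts had Kcmf1 (0.072), E2f1 (0.072) and Denr (0.075), and Pcbd2 had Npc2 (0.069), H2afj (0.070) and Pdcl3 (0.074).

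Genes that use the cofactor, feed its synthesis or handle its product dopamine were taken from a list of 20 related genes, all of which were tested. Of these 20, 11 were lower in flox+/Y libraries and 0 were higher (adjusted p under 0.05 by edgeR), against 15.1% and 13.4% of all genes. At an unadjusted p under 0.05 edgeR also gave 0 higher, where DESeq2 and limma-voom each gave 2. After adjustment DESeq2 called 0 higher and limma-voom 2, Agmo and Nme1. Their median log2 fold change was -0.96. The list's genes were chosen with the same results known as the members.

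Among the 4 hydroxylases and oxygenases, the 2 enzymes that define dopamine and serotonin neurons were lower. Th, tyrosine hydroxylase, read 1241, 435.0, 619.4 and 531.9 CPM in control replicates 3 to 6 and 180.1, 184.6, 210.7 and 282.4 CPM in flox+/Y replicates 2 to 5, without overlap (log2 fold change -1.72 ± 0.31 SE, edgeR adjusted p = 0.00351). Tph2, the neuronal tryptophan hydroxylase, read 31.28, 159.7, 124.6 and 129.9 CPM in controls and 9.837, 15.67, 23.32 and 21.83 CPM in flox+/Y (-2.66 ± 0.48 SE, edgeR adjusted p = 0.00384). Control replicate 3 had the highest Th and by far the lowest control Tph2. Without it the log2 fold changes were -1.31 for Th and -2.97 for Tph2, and both genes were still called lower. The others were not called and lay at low levels: Tph1 reached at most 0.295 CPM and had no read in control replicate 3, and Agmo, alkylglycerol monooxygenase, at most 6.30 CPM. Their log2 fold changes were 0.29 and 0.80, with edgeR adjusted p of 0.855 and 0.161.

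Of the 3 nitric oxide synthases, which also use tetrahydrobiopterin, 0 were called by edgeR or limma-voom, and 0 had an unadjusted p under 0.05 with either. DESeq2 did not call Nos1 and gave no p for Nos2 and Nos3. Nos1, the neuronal form, was at 60.0 to 89.7 CPM in controls and 40.9 to 78.3 CPM in flox+/Y (-0.31 ± 0.21 SE, edgeR adjusted p = 0.308). Nos3, the endothelial form, was at 34.3 CPM in control replicate 3 and at 2.53 to 3.26 CPM in the other controls, and its log2 fold change of -1.38 (edgeR adjusted p = 0.275) became 0.55 without that library. Nos2, the inducible form, was at 2.54 CPM in the same library and at 0 to 0.213 CPM in the other 7 libraries of both groups, with a log2 fold change of -2.29 (edgeR adjusted p = 0.298) that became 1.16 without it. Both isoforms were high in the library with the high endothelial and smooth muscle markers, whose part in these values was not tested. Of the exonic bases of Nos3, 32.3% are shared with Gm15587 and Atg9b on the opposite strand. Counting took no account of strand, so reads from that stretch cannot be assigned to one gene.

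Dnajc12, a co-chaperone of the aromatic amino acid hydroxylases, was lower, at 62.2 ± 6.39 CPM (SD, n = 4) in controls and 34.7 ± 8.61 CPM (SD, n = 4) in flox+/Y (-0.84 ± 0.18 SE, edgeR adjusted p = 0.00731). Reductases that can replace sepiapterin reductase in side routes were both lower. Akr1b3, an aldose reductase, went from 58.66 ± 6.997 to 28.54 ± 3.51 CPM (SD, n = 4 each; -1.04 ± 0.14 SE, edgeR adjusted p = 0.000851), and Cbr1, a carbonyl reductase, from 119 ± 30.7 to 64.8 ± 7.74 CPM (SD, n = 4 each; -0.88 ± 0.18 SE, edgeR adjusted p = 0.00614). Without flox-/Y replicate 3 the log2 fold changes were -0.96 for Akr1b3 and -0.69 for Cbr1, and both genes were still called lower. Spr, the dedicated enzyme of that step, was not called.

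On the supply of GTP, the substrate of Gch1, 3 of 7 genes were lower and 4 were not called. Impdh1 and Impdh2, the inosine monophosphate dehydrogenases that commit purines to guanine nucleotides, were both lower, by -1.35 ± 0.23 SE and -0.80 ± 0.19 SE on the log2 scale (edgeR adjusted p = 0.00220 and 0.0108). Without flox-/Y replicate 3 the values were -1.1 and -0.6, and both genes were still called lower. The kinase gene Nme2 was called lower (-1.10 ± 0.23 SE, edgeR adjusted p = 0.00702) at only 3.012 and 1.403 CPM in controls and flox+/Y, and 48.9% of its exonic bases are shared with Gm20390, so its value is uncertain. The 4 genes that were not called had edgeR adjusted p between 0.159 and 0.745.

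The 3 genes of dopamine handling were all lower and by more than Th. Ddc, aromatic amino acid decarboxylase, had a log2 fold change of -2.32 ± 0.26 SE (edgeR adjusted p = 0.000432). The vesicular transporter Slc18a2 had -1.99 ± 0.20 SE (edgeR adjusted p = 0.000241) and the dopamine transporter Slc6a3 had -2.24 ± 0.32 SE (edgeR adjusted p = 0.00120). Among the genes described here and with all libraries, Pcbd1 at -2.27 lay in the range of these 3, and Gch1 at -1.57 lay nearer Th at -1.72. Without flox-/Y replicate 3, Ddc was at -2.04, Slc18a2 at -1.85 and Slc6a3 at -1.99, all still called lower. Pcbd1 at -2.29 was then outside their range, and Gch1 at -1.28 lay beside Th at -1.31. The differences between these fold changes were not tested.

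**Figure D4:**
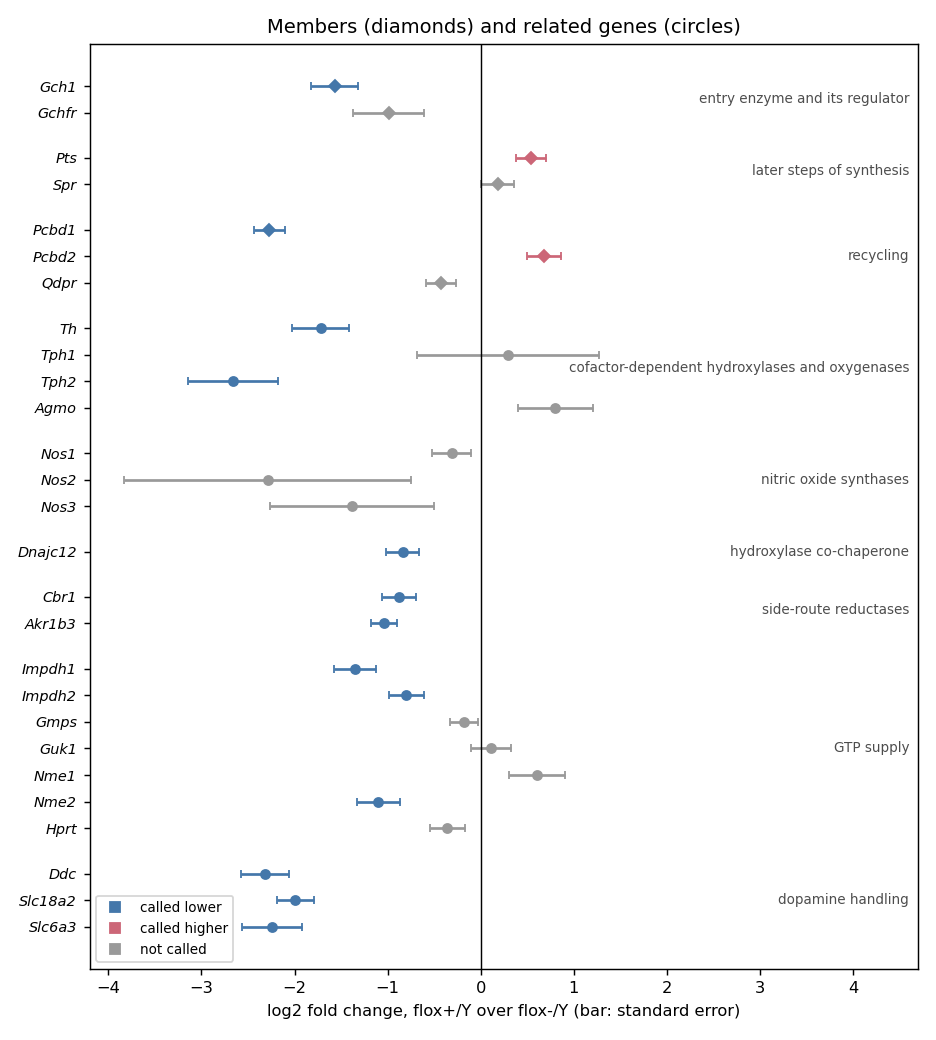
Log2 fold change (flox+/Y over flox-/Y, horizontal axis) for the 7 members (diamonds) and 20 related genes (circles), grouped by role. Bars are standard errors derived from edgeR's test statistic. Genes called lower are in blue, called higher in red and not called in grey. Pts and Pcbd2 are the only genes drawn in red, and 11 related genes are drawn in blue.

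Markers of the cells these extracts could hold moved between the groups as well. Each of 11 lists was summarised as its mean log2 CPM per library and tested with an exact two-sided permutation test. With all 8 libraries there are 70 assignments and the smallest possible p is 0.0286, and no list had an adjusted p under 0.05. The adjusted p depends on how many of the 11 lists reach that smallest p. Without flox-/Y replicate 3 the exact test gave adjusted p = 0.0449 for 7 lists: dopamine (difference -1.23), serotonin (-1.62), GABA (-0.75) and glutamate (-1.02) neurons, astrocytes (0.94), microglia (2.22) and pericytes and smooth muscle (1.16). Leaving out any other single library gave no list an adjusted p under 0.05. With all 8 libraries the pericyte difference was 0.1. Flox-/Y replicate 3 was singled out by its high endothelial and pericyte markers, so its removal cannot test the pericyte list. The dopamine, astrocyte and microglia lists had an exact p of 0.0286 with and without that library, so only the adjustment differed. Of 18 dopamine neuron markers, 4 of which are also in the related list, 15 were lower and 1, Aldh1a1, was higher by edgeR. Aldh1a1, a retinaldehyde dehydrogenase that other cells also express, held much of the summed level, with means of 722.7 CPM in controls and 1664 CPM in flox+/Y. The list's summed level was 2560 to 4881 CPM in controls and 1919 to 2688 CPM in flox+/Y, and the list's difference was -1.42 (exact p = 0.0286, adjusted 0.0786). Lists of glia had higher means in flox+/Y. Astrocyte markers (3 of 12 called higher, difference 1.52) summed to 834.3 to 4489 CPM in controls and 8650 to 13040 CPM in flox+/Y, with Gfap, an intermediate filament of astrocytes, at mean levels of 1162 and 7270 CPM. Oligodendrocyte markers (8 of 14 higher, 0.73) summed to 1211 to 1836 and 2006 to 4698 CPM, and microglia and macrophage markers (11 of 14 higher, 2.09) to 33.97 to 59.31 and 72.76 to 222.3 CPM. Each of these 3 glial lists had an exact p of 0.0286 and an adjusted p of 0.0786.

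The serotonin, GABA and glutamate neuron lists were lower in mean. Among the alternatives run, they passed the test only without flox-/Y replicate 3, where each had an exact p of 0.0286. Without both libraries numbered 3 the smallest possible exact p was 0.1, so no list could pass. With all 8 libraries these neuron lists differed as follows: serotonin neurons by -1.25 (3 of 6 markers called lower, exact p = 0.0857, adjusted 0.157), GABA neurons by -0.58 (5 of 8, exact p = 0.0571, adjusted 0.126) and glutamate neurons by -0.69 (2 of 5, exact p = 0.114, adjusted 0.18). Serotonin markers summed to 106.0 to 323.2 CPM in controls and 72.98 to 110.9 CPM in flox+/Y. Noradrenaline neuron markers (Dbh, Slc6a2, Phox2a and Hand2) summed to at most 1.317 CPM in any library, and each was at 0 in at least 1 library. Their difference was -0.18 (adjusted exact p = 1). Oligodendrocyte precursors differed by 0.14 (exact p = 0.657, adjusted 0.904), endothelial cells by -0.36 and pericytes and smooth muscle by 0.10 (exact p = 1 for both). The labels call the material dopaminergic neuronal cells. The defining markers Th, Ddc, Slc6a3 and Slc18a2 were present in all 8 libraries, beside markers of astrocytes, oligodendrocytes and serotonin, GABA and glutamate neurons. In group means, Gch1 and Pcbd1 were lower in flox+/Y, as were the dopamine, serotonin, GABA and glutamate neuron markers. Pts and Pcbd2 were higher, as were the glial markers. Single libraries did not always follow. Flox-/Y replicate 3 had the highest Gch1 (48.89 CPM) and dopamine sum (4881 CPM) but the lowest control serotonin sum (106.0 CPM). Flox+/Y replicate 3 had the highest Pts (72.93 CPM) and Pcbd2 (51.5 CPM) of its group but its lowest astrocyte sum (8650 CPM). Its microglia sum, 204.6 CPM, was high in the group's range of 72.76 to 222.3 CPM. Its oligodendrocyte sum was 2511 CPM, in a range of 2006 to 4698 CPM. The part of these other cells in the members' values was not tested.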

How the data were processed

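Ribosome-associated RNA of 8 VTA libraries (4 Ogt flox+/Y, 4 Ogt flox-/Y, grouped by the genotype in their labels) was analysed from 1 table of read counts per gene deposited by the authors. Counting used featureCounts 2.0.3 over exons of the GENCODE vM30 annotation, per the file headers. The recorded command sets no strand, pair or multi-mapping option, so strand was ignored, mates were counted singly and reads with several alignments were left out. Per the submitters' processing notes, FastQC, Trimmomatic, STAR and the mm10 build were also used. GENCODE vM30 describes GRCm39, so the build of the alignment is uncertain, and coordinates are those of the table.

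Symbols were matched by gene ID for 52073 of 56691 IDs, and IDs without one held 0.327% to 1.81% of reads. Counts were filtered with filterByExpr, scaled by TMM and tested with edgeR 4.0.16 (robust quasi-likelihood, R 4.3.3), adjusted by Benjamini-Hochberg over 19912 genes at a threshold of 0.05. CPM are TMM-scaled, and SDs are between libraries. The SEs of edgeR fold changes were derived from the fold change and its test statistic. Intervals use the normal distribution and are narrower than ones that allow for so few libraries. DESeq2 1.42.0 and limma-voom 3.58.1 were alternatives, beside other scalings and filters, a replicate term and leaving out libraries. Floors cover counting error only. Same-group libraries differed beyond counting noise (chi-square per degree of freedom 25.0 to 463), so none was 1 library deposited again, which does not show separate animals. The script was tested on simulated data.

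Members and lists were chosen with earlier results of these data known, and some genes of the lists are not reported here. Named genes are the members, Ogt, related genes that passed the threshold, the hydroxylases, nitric oxide synthases and Dnajc12 of the list, and the 3 genes nearest each called member in log2 CPM (prior count 2), with markers that define a cell type. Guk1, Nme1, Aldh1a1 and Gfap were named after their values were seen.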

Additional observations from a re-analysis of the deposited data

Results flagged for a closer look

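In groups of 4 libraries, a library was singled out where its gap to the nearest other library took up nearly the whole range of the group (Dixon's test at the 95% level). Of 54 groups examined, over all members and related genes, 12 held such a library, and chance alone gives about 1 in 20.

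Among the members, both cases were flox+/Y replicate 3: Pts stood at 72.93 CPM there against 51.52 to 54.81 CPM in the rest of the group, and Pcbd2 at 51.5 CPM against 32.4 to 35.02 CPM. Both genes were already higher than controls in the other 3 libraries.

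Control replicate 3 stood apart for 6 related genes. Ddc was at 447.6 CPM against 219.3 to 250.7 CPM in the other controls, and Impdh2 at 102.4 CPM against 61.41 to 66.71 CPM. Nos3 was at 34.34 CPM against 2.529 to 3.257 CPM, and Nos2 at 2.544 CPM against 0 to 0.08487 CPM. Nme1 was at 97.08 CPM against 74.13 to 75.74 CPM. Agmo was low there, at 0.9203 CPM against 2.504 to 2.826 CPM.

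In flox+/Y replicate 2, Ddc was at 38.76 CPM against 62.23 to 65.79 CPM, and Impdh2 at 33.67 CPM against 44.24 to 46.12 CPM. Agmo was at 6.303 CPM in flox+/Y replicate 4 against 2.817 to 3.222 CPM. Nme1 was at 220.7 CPM in flox+/Y replicate 3 against 81.49 to 95.29 CPM.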

How the results depend on the processing

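Gch1 and Pcbd1 kept direction and call in all 16 alternatives, and Gchfr, Pts, Pcbd2 and Qdpr kept direction but not always the call. The number of genes called, 5668 as reported, was 10208 with limma-voom and sample quality weights, 9565 without both libraries numbered 3, 2679 at a threshold of 0.01, and 3876 to 7198 on leaving out 1 library. Of the 7 members, 4 were called as reported, 2 at a threshold of 0.01 and 2 to 6 on leaving out 1 library. Upper quartile scaling called 5608 genes, 3176 of them higher, where 2659 of 5668 were higher as reported, and moved the median log2 fold change of all genes to 0.091. Whether the replicate numbers pair the samples was not settled. Deviations of same-numbered libraries correlated at 0.104, 0.099 and 0.042, and those of differently numbered libraries at -0.103 to 0.081. A fit with the number as a replicate block called 1258 genes, 2 members (Gch1 and Pcbd1, not Pts and Pcbd2) and 4 related genes. Signs reversed with limma-voom for Tph1 (-0.38), Nos2 (0.16), Nos3 (0.09) and Guk1 (-0.18), and without both libraries numbered 3 for Spr (-0.03), Nos3 (0.29), Guk1 (-0.21) and the endothelial marker level (1.07). Leaving out 1 library gave -0.02 to 0.28 for Spr, -0.31 to 0.73 for Tph1, -0.17 to 0.20 for Guk1, -2.72 to 1.16 for Nos2 and -1.71 to 0.55 for Nos3. Marker levels then ran from -1.54 to -1.23 for dopamine, -1.62 to -1.08 for serotonin, -0.75 to -0.51 for GABA, -1.02 to -0.53 for glutamate and -0.88 to 0.26 for noradrenaline neurons. They ran from 0.94 to 1.78 for astrocytes, 1.83 to 2.35 for microglia, -0.95 to 1.06 for endothelial cells and -0.40 to 1.16 for pericytes. The cause of these shifts was not tested. DESeq2 gave no p for Nos2 and Nos3, the strict filter left out Tph1 and Nos2, and Nos2 was not tested without both libraries numbered 3. Depth limits only these low genes, since every member had at least 483 reads in each library.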
